A study of Zea mays with 4 samples.

Results

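A set of 4 genes of protein folding in the endoplasmic reticulum were followed in developing maize (Zea mays) kernels: b-70 (GRMZM2G114793), which encodes the chaperone BiP, crt2 (GRMZM2G358059), which encodes calreticulin, PDI1 (GRMZM2G091481), which encodes a protein disulfide isomerase, and bZIP60 (GRMZM2G025812), which encodes a transcription factor of the unfolded protein response. They were taken by their gene IDs, 4 of the 39625 IDs counted, and all 4 were among the 19519 genes tested. A reference gene table listed the first 3 under the names b-70, crt2 and pdi (PDIL1-1), and the last only under the clone name pco110951. RNA was sequenced from whole field-grown kernels at 14 days after pollination, from wild type (WT) plants and from plants labelled as a zmknl1 mutant. KNL1 is a scaffold protein of the kinetochore. The labels do not state the allele, the genetic background or the number of kernels behind a library. Each genotype had 2 libraries, described as biological replicates from different ears.

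Proteins that enter the secretory pathway are folded in the lumen of the endoplasmic reticulum. BiP, an Hsp70 chaperone, binds exposed hydrophobic stretches of new chains, calreticulin and its membrane-bound relative calnexin hold glycoproteins through their sugars, and protein disulfide isomerases form and rearrange disulfide bonds. When unfolded protein accumulates, the kinase and endoribonuclease IRE1 splices the bZIP60 messenger RNA, and the protein made from the spliced form enters the nucleus and activates chaperone genes. In the maize endosperm the same compartment assembles zeins, the storage proteins, into protein bodies, and BiP is known to increase in mutants with defective zeins such as floury2. The counts are sums per gene, so spliced and unspliced bZIP60 messages were not separated.

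Levels are given as CPM, a gene's reads as a share of all reads counted in its library, on library sizes scaled with TMM, a method that sets the bulk of genes equal across libraries. Reads counted in genes came to between 16595289 and 22725030 per library. WT replicate 2 stood apart: its 10 most abundant genes took 25.251% of its counts, against 6.743 to 7.77% in the other libraries, and its TMM factor was 0.707 against 1.10 to 1.16. With plain library totals instead, a scaling chosen after the data were seen, the median log2 fold change of all genes moved up by 0.32. With 2 libraries against 2, an exact two-sided permutation test of a single gene cannot give a p below 0.333, so only the fit across all genes was used. Intervals on single libraries are exact Poisson intervals at 95% and cover counting error only.

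The 4 genes did not share a direction. In zmknl1, crt2 lay above both WT libraries, PDI1 and bZIP60 lay below them, and b-70 overlapped. None of the 4 passed the test between genotypes. The edgeR quasi-likelihood test, with p-values adjusted by the Benjamini-Hochberg method across every tested gene, called 0 of the 4 at an adjusted p under 0.05, against 4 of 19519 genes (0.0205%), and 0 of the 4 had an unadjusted p under 0.05, against 10.2% of tested genes. DESeq2 called 0 of the 4 after adjustment, against 3.62% of the genes it adjusted, and limma-voom also called 0, against 0% of genes; each had an unadjusted p under 0.05 for crt2 and PDI1, a threshold passed by 12.0% and 11.2% of genes. Groups that did not overlap were found in 3 of the 4 genes and in 41.9% of all tested genes.

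Among the chaperones, the BiP gene b-70 measured 1094 CPM in WT replicate 1 and 1098 CPM in WT replicate 2. In zmknl1 it measured 1348 CPM in replicate 1 and 730 CPM in replicate 2. The zmknl1 libraries therefore lay on either side of the WT level, and the genotypes overlapped. Counting error was small beside this difference: the Poisson interval ran from 1333 to 1363 CPM in zmknl1 replicate 1 and from 720 to 741 CPM in zmknl1 replicate 2. The replicates differed by a fold of 1.004 in WT and 1.85 in zmknl1. Among 13193 tested genes with a mean of at least 5 CPM, 0.538% differed less than b-70 between the WT libraries and 84.9% differed less between the zmknl1 libraries. The log2 fold change of zmknl1 against WT was -0.08 ± 0.49 (SE), with a 95% interval from -1.23 to 1.08 and an edgeR adjusted p of 0.979. That interval spans a BiP level from 0.426 to 2.11 times that of WT. The sign of the b-70 difference rested on 1 library: without zmknl1 replicate 2 the log2 fold change was 0.30, and without zmknl1 replicate 1 it was -0.58.

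The close match of b-70 between the WT libraries held for TMM-scaled values and not for plain totals. As CPM on plain totals, b-70 came to 1208 and 777 in WT and 1565 and 806 in zmknl1, and the log2 fold change was 0.26. A further BiP gene, bip2 (GRMZM2G415007), measured 228 and 197 CPM in WT against 364 and 173 CPM in zmknl1. Like b-70 it was higher in zmknl1 replicate 1 than in both WT libraries and lower in zmknl1 replicate 2 than in both. The BiP genes are close copies, and reads that align to more than 1 place were not counted in genes. The levels of b-70 and bip2 and the split between them are therefore uncertain. Such reads were 23.9% of the reads listed for WT replicate 2, against 10.9 to 13.5% in the other libraries. How many came from BiP genes is not known.

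For calreticulin the difference between genotypes was larger than the spread within each. The crt2 gene measured 289 CPM in WT replicate 1 and 288 CPM in WT replicate 2. Its zmknl1 values were 556 CPM in replicate 1 and 508 CPM in replicate 2, so that both zmknl1 libraries lay above both WT libraries. The mean level in zmknl1 was 1.85 times that in WT, while the replicates differed by a fold of 1.003 in WT and 1.09 in zmknl1. The log2 fold change was 0.88 ± 0.39 (SE), with a 95% interval from -0.03 to 1.80 and an edgeR adjusted p of 0.508. The unadjusted p was 0.0556 in edgeR, 0.0271 in DESeq2 and 0.0325 in limma-voom, and the DESeq2 adjusted p was 0.294. Over the 4 fits that each left out 1 library the log2 fold change ran from 0.82 to 0.95. With plain library totals it was 1.21, and zmknl1 again lay above both WT libraries, at 646 and 561 against 319 and 204 CPM.

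**Figure D1:**
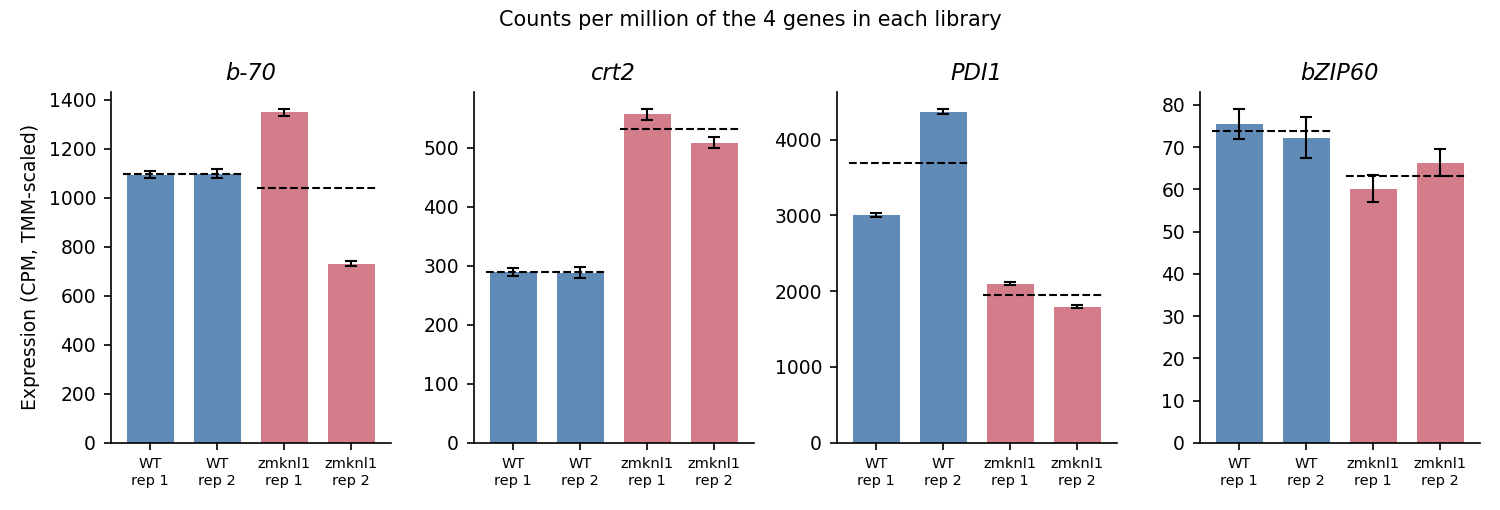
CPM on TMM-scaled library sizes (vertical axes, each from 0) for b-70, crt2, PDI1 and bZIP60 in the WT (blue) and zmknl1 (red) libraries; bars are single libraries, error bars are 95% Poisson intervals for counting error, and dashed lines are genotype means. The crt2 bars lie at 556 and 508 CPM in zmknl1 above 289 and 288 CPM in WT, while the b-70 bars of zmknl1 fall on either side of WT.

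The ratio of crt2 counts to b-70 counts differed between the libraries of the 2 genotypes, though neither gene was called on its own. For each b-70 count there were 0.264 and 0.262 crt2 counts in WT, and 0.413 and 0.696 in zmknl1. This ratio is taken within a library, so library scaling does not enter it, and both zmknl1 values lay above both WT values. Reads that align to more than 1 place were left out of the b-70 counts, so the ratio carries that uncertainty. The share of all gene pairs whose ratios do not overlap was not computed. Among single tested genes, 41.9% did not overlap. The ratio of b-70 to bip2 counts did not overlap either, at 4.80 and 5.57 in WT against 3.70 and 4.23 in zmknl1. For each count of the gene listed as CNX (GRMZM2G022180), for calnexin, there were 0.457 and 1.24 crt2 counts in WT and 1.11 and 1.90 in zmknl1, and this ratio overlapped. CNX itself measured 632 and 232 CPM in WT against 502 and 267 CPM in zmknl1, overlapped between genotypes and differed 2.72-fold between the WT libraries. Of the 4 chaperone and lectin genes, 1 lay above both WT libraries (crt2), against 21.9% of all tested genes, and 3 overlapped. The log2 fold changes ran from -0.17 for CNX to 0.88 for crt2.

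Disulfide isomerase PDI1 differed in the direction opposite to crt2. The gene measured 3006 CPM in WT replicate 1 and 4371 CPM in WT replicate 2. Its zmknl1 values were 2098 CPM in replicate 1 and 1798 CPM in replicate 2, both below the lower WT library. The mean of the WT libraries was 3688 ± 965 CPM and that of the zmknl1 libraries 1948 ± 212 CPM (SD, n = 2), so that the WT level was 1.89 times that in zmknl1. The log2 fold change was -0.92 ± 0.52 (SE), with a 95% interval from -2.15 to 0.31 and an edgeR adjusted p of 0.634. Unadjusted, the p was 0.121 in edgeR, 0.0311 in DESeq2 and 0.0415 in limma-voom. The size depended on WT replicate 2, without which the log2 fold change was -0.62; without WT replicate 1 it was -1.17. Plain library totals gave 3320 and 3091 CPM in WT and 2434 and 1983 in zmknl1, a log2 fold change of -0.54, again with no overlap. For each PDI1 count there were 0.0961 and 0.0659 crt2 counts in WT and 0.265 and 0.283 in zmknl1.

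The other disulfide isomerase genes were spread in both directions. The list of disulfide formation genes held 15 IDs with PDI1, all tested, of which 5 lay above both WT libraries, 4 below and 6 overlapped; the groups did not overlap in 9 of the 15, against 41.9% of all tested genes. Their median log2 fold change was 0.04, against 0.01 over all tested genes. In the subfamily of PDI1, PDIL1, the neighbours pdi2 (PDIL1-2, GRMZM2G163421) and pdi3 (PDIL1-3, GRMZM2G134889) also lay below WT in both zmknl1 libraries. Of all tested genes, 20.0% lay below both WT libraries and 21.9% above. The pdi2 gene measured 28.5 and 27.9 CPM in WT against 14.5 and 18.3 CPM in zmknl1, with an edgeR adjusted p of 0.6003. The pdi3 gene measured 168 and 119 CPM in WT against 87.7 and 86.9 CPM in zmknl1, with an edgeR adjusted p of 0.603. In the same subfamily pdi5 (GRMZM2G014076) lay above both WT libraries, at 17.4 and 27.5 CPM in WT against 32.5 and 33.6 CPM in zmknl1, and the 2 IDs listed as pdi4 overlapped.

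All 3 genes of the PDIL2 subfamily had positive log2 fold changes, as did 9838 of all 19519 tested genes. The pdi6 gene (PDIL2-1, GRMZM2G128171) measured 81.8 and 60.7 CPM in WT against 234 and 182 CPM in zmknl1, a level 2.92 times that of WT. It was the 1 gene of the endoplasmic reticulum list that DESeq2 called (log2 fold change 1.55, adjusted p = 0.0191), against 1.59% of genes called higher by that tool, while the edgeR adjusted p was 0.278. Without WT replicate 2 its log2 fold change was 1.35, with an edgeR adjusted p of 0.128. The pdi7 gene (PDIL2-2, GRMZM2G159369) measured 103 and 108 CPM in WT against 174 and 188 CPM in zmknl1 (edgeR adjusted p = 0.531). The third, pdi8 (PDIL2-3, GRMZM2G389173), overlapped at 124 and 168 CPM in WT against 255 and 167 CPM in zmknl1. In rice, PDIL1-1 is known to act in the folding of glutelin precursors and PDIL2-3 in the accumulation of a cysteine-rich prolamin. The lowest log2 fold change of the list belonged to a PDIL5-1 gene (GRMZM2G073628), at 144 and 168 CPM in WT against 61.3 and 68.7 CPM in zmknl1 (-1.26 ± 0.37, SE; adjusted p = 0.309 in edgeR and 0.0704 in DESeq2). A further ID with that name, GRMZM2G443655, overlapped, with 10.5 and 74.0 CPM in WT against 32.0 and 70.2 CPM in zmknl1.

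**Figure D2:**
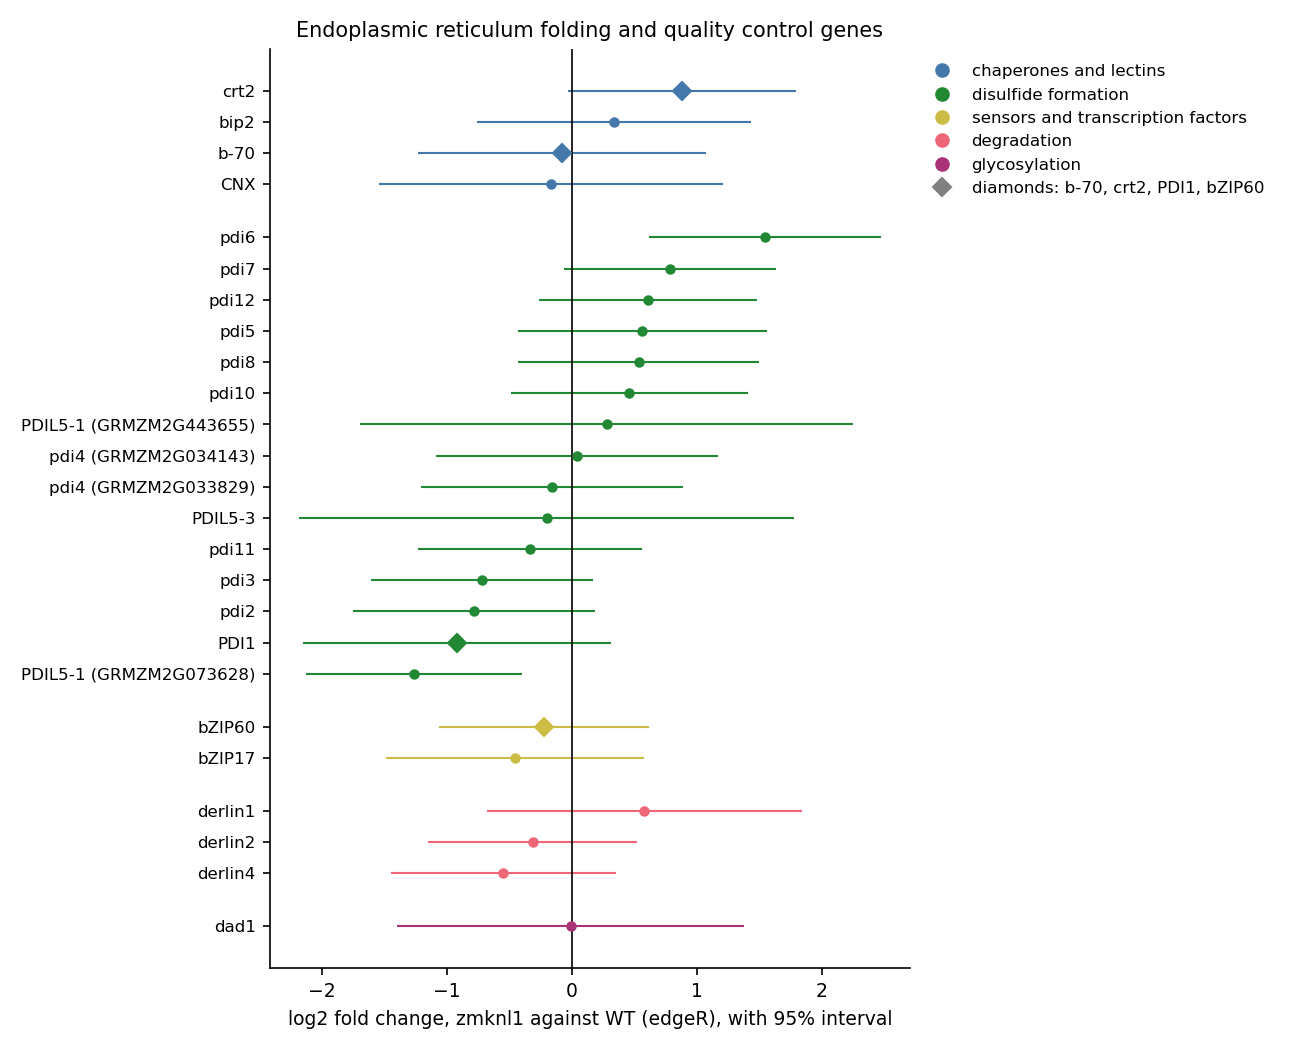
Log2 fold change of zmknl1 against WT (horizontal axis, edgeR, 2 libraries per genotype) with 95% intervals for the 25 tested genes of the endoplasmic reticulum list, coloured by role; diamonds mark b-70, crt2, PDI1 and bZIP60. The intervals of pdi6 and of the PDIL5-1 gene GRMZM2G073628 are the only ones that leave out 0, before adjustment over all genes.

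For the regulator bZIP60 the estimated difference was small and its interval wide. It measured 75.5 CPM in WT replicate 1 and 72.2 CPM in WT replicate 2. In zmknl1 it measured 60.2 CPM in replicate 1 and 66.3 CPM in replicate 2. Both zmknl1 values were below both WT values on the TMM scale, but the counting intervals of the nearest libraries met: 67.4 to 77.3 CPM in WT replicate 2 and 63.1 to 69.5 CPM in zmknl1 replicate 2. The WT mean was 73.8 ± 2.29 CPM and the zmknl1 mean 63.2 ± 4.30 CPM (SD, n = 2). The log2 fold change was -0.22 ± 0.36 (SE), with a 95% interval from -1.07 to 0.62, or 0.478 to 1.53 times the WT level, and an edgeR adjusted p of 0.902. Without WT replicate 2 it was -0.25. With plain library totals the order did not hold: bZIP60 then came to 83.4 and 51.1 CPM in WT and 69.8 and 73.1 in zmknl1, and the log2 fold change was 0.09. The related gene bZIP17 (GRMZM2G103647), whose product in Arabidopsis is a membrane-held factor of the stress response, measured 58.5 and 114 CPM in WT against 66.4 and 59.3 CPM in zmknl1 and overlapped.

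The tested genes for removal of misfolded proteins and for glycosylation had log2 fold changes between -0.55 and 0.58, and edgeR and DESeq2 called 0 of these 4, against 0.0205% and 3.62% of all genes. Derlins are membrane proteins of the channel through which misfolded proteins leave the endoplasmic reticulum for degradation. The derlin2 gene GRMZM2G082976 measured 144 and 152 CPM in WT against 121 and 117 CPM in zmknl1, and derlin4 (GRMZM2G112609) measured 127 and 184 CPM against 106 and 107 CPM. Both lay below the WT libraries, with edgeR adjusted p of 0.846 and 0.712, where 20.0% of all tested genes lay below. A further ID of derlin2, GRMZM2G384070, had 0 counts in all 4 libraries and was the 1 listed gene not tested. The derlin1 gene (GRMZM2G117388) had 38.1 CPM in WT replicate 1 and 104 to 119 CPM in the other 3 libraries. The dad1 gene (GRMZM5G847530), for a subunit of the oligosaccharyltransferase that attaches sugars to new chains, gave 68.8 and 182 CPM in WT against 76.6 and 172 CPM in zmknl1, a wider spread within each genotype than between them.

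Over the whole endoplasmic reticulum list of 26 IDs, 25 were tested, of which edgeR and limma-voom called 0, against 0.0205% and 0% of all genes, and DESeq2 called 1, against 3.62%. Of the 25, 2 had an unadjusted p under 0.05 in edgeR (pdi6 and GRMZM2G073628), against 10.2% of all tested genes. Both zmknl1 libraries lay above WT in 6 genes, below in 7, and 12 overlapped, so that 52.0% did not overlap, against 41.9% of all tested genes (21.9% above and 20.0% below). The median log2 fold change was -0.08, against 0.007 over all tested genes. Without WT replicate 2 these medians were 0.11 and 0.13. A log2 fold change of less than 1 in size was found in 23 of the 25 genes and in 14360 of all 19519 tested genes. The genes were spread over both directions in 3 role groups, while both transcription factor genes and dad1, the single glycosylation gene, had negative log2 fold changes. With plain library totals the median of the list was 0.26 and that of all genes 0.34.

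**Figure D3:**
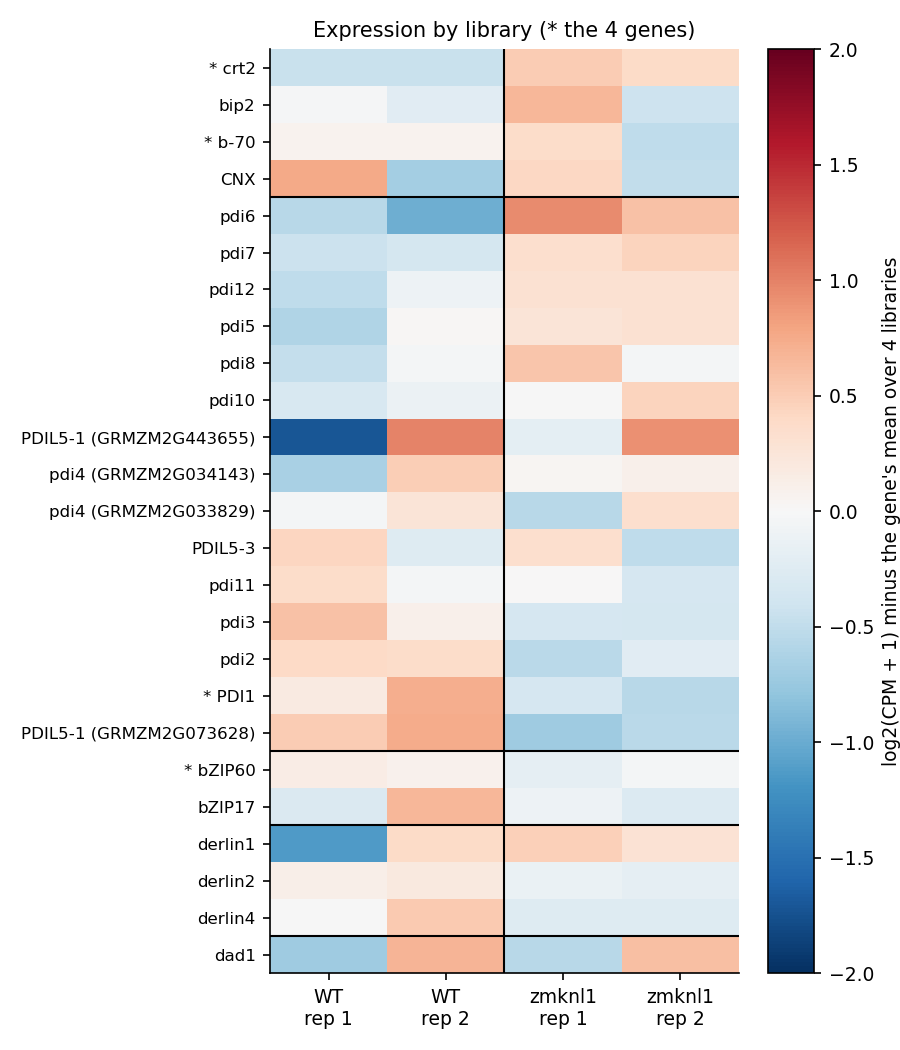
Expression of the 25 tested genes in each library, as log2(CPM + 1) minus the gene's mean over the 4 libraries (colour), with horizontal lines between role groups, a vertical line between genotypes and asterisks at b-70, crt2, PDI1 and bZIP60. Of the 25 rows, 6 are higher in both zmknl1 libraries (crt2, pdi6 and pdi7 among them), 7 are lower (PDI1, pdi2 and pdi3 among them) and 12 overlap, among them b-70, bip2 and CNX.

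Levels of tissue markers also differed between these whole-kernel libraries, where fewer cells of a type and less RNA per cell cannot be told apart. Among the 22 tested markers edgeR and limma-voom called 0, and DESeq2 called 9, against 3.62% of all genes: 4 higher in zmknl1 among the basal transfer layer genes, and 3, 1 and 1 lower among the embryo, aleurone and starchy endosperm genes. Starchy endosperm had 9 IDs, for zeins and their activators. Their summed level was 7898 and 40565 CPM in WT against 8470 and 7470 CPM in zmknl1. The single zein gene z1C2 gave 20902 CPM of this in WT replicate 2, against 849 CPM in WT replicate 1. PDI1 was highest in WT replicate 2 on the TMM scale and in WT replicate 1 on plain totals. Of the 9, 4 lay below both WT libraries and 5 overlapped, where 20.0% of all tested genes lay below and 21.9% above. All 5 tested genes of 6 listed for the basal transfer layer lay above both WT libraries (18.0 to 36.8 CPM summed in WT, 115 to 148 CPM in zmknl1), with ebe2 at 0 in WT and BETL1 at 0 in all libraries. Of 5 embryo and oil body genes, 4 lay below both WT libraries. Summed over the 5, the level was 2957 and 713 CPM in WT against 272 and 172 CPM in zmknl1. The glb2 gene measured 249 and 5.37 CPM in WT and 0 in zmknl1. Of 3 aleurone genes, 2 lay below. The sum of all 3 was 352 and 224 CPM in WT against 202 and 174 CPM in zmknl1. It includes dek1, which overlapped, at 196 and 63.0 CPM in WT against 146 and 97.5 CPM in zmknl1. The part of these tissue differences in the values of crt2, PDI1, bZIP60 and b-70 was not tested.

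The genes whose profiles lay nearest to each member were sought among 111 genes with a symbol in the reference table and a mean of at least 5 CPM. Likeness was the root mean square difference of log2(CPM + 1), centred per gene, over the 4 libraries, and is given as a description. Nearest to crt2 were lox4 (GRMZM2G109056), a lipoxygenase gene, at 0.0973, the gene listed as HMT-3 (GRMZM2G152470) at 0.100, and RAB2A (GRMZM2G330430), for a small GTPase of vesicle traffic, at 0.223. HMT-3 measured 275 and 316 CPM in WT against 625 and 572 CPM in zmknl1. For PDI1 the nearest was dhar1 (GRMZM5G855672), for dehydroascorbate reductase, at 0.199, with 225 and 248 CPM in WT against 145 and 148 CPM in zmknl1, followed by CNR13 (GRMZM2G027821) at 0.247 and ERA1 (GRMZM2G158024) at 0.279. For b-70 they were sbp9 (GRMZM2G081127), mbd117 (GRMZM2G048411) and sm1 (GRMZM2G031311), at 0.148 to 0.182. For bZIP60 they were TAC1 (GRMZM2G447987), IPP (GRMZM2G061928) and CNR6 (GRMZM2G168257), at 0.0996 to 0.133; the bZIP60 profile itself departed from its mean by only 0.123 on this scale.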

How the data were processed

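The deposited values are raw counts per gene, made by the authors with Trimmomatic 0.36 for trimming, HISAT2 2.0.1 for alignment to B73 RefGen_v3 and HTSeq for counting, per the submitters' processing notes. No source used here states the counting mode or strand setting, so reads of a gene cannot be told apart from those of an overlapping or antisense partner. The 5 closing lines for reads assigned to no gene (35.8% to 47.8% of the reads listed) were left out. Genes passing the filterByExpr defaults of edgeR 4.0.16 (19519) were scaled with TMM and tested for zmknl1 against WT with the quasi-likelihood F-test in R 4.3.3, two-sided, with Benjamini-Hochberg adjustment at 0.05; DESeq2 1.42.0 (757 genes without an adjusted p) and limma 3.58.1 with voom were alternatives, as were other scalings, other filters, a block for the replicate number, and fits with each library left out. Standard errors were back-calculated from each F statistic. On counts simulated with the dispersions that edgeR fitted, the check covered the estimated fold changes and set no requirement on calls or p-values. The p-values set each difference against the spread between libraries from different ears, with variance estimates that also draw on all tested genes. Differences between ears and between library preparations cannot be told apart.

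Names came from a reference table of assembly Zm-B73-REFERENCE-NAM-5.0, another build than the one counted, so no positions are given; it held 19060 of 39625 IDs. The endoplasmic reticulum list was matched there by symbol or synonym. The IDs GRMZM2G067402 (GLB1, synonym Hb) and GRMZM2G113203 (MRP1, synonym mrpa1), whose synonyms name another protein, were left out of the tissue markers; the globulin gene glb1 was kept. The genes named were the 4 members, list genes called by edgeR or DESeq2 and up to 4 list genes per role with the highest mean CPM. The 3 nearest profiles per member were also named. The genes pdi2, pdi3, pdi5, the pdi4 IDs and both PDIL5-1 IDs were named after their values were seen. So were the tissue markers ebe2, BETL1, glb2, dek1 and z1C2. The members and lists were chosen with earlier results of these data known.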

Additional observations from a re-analysis of the deposited data

How the results depend on the processing

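None of the 4 genes passed an adjusted p of 0.05 in any of the 13 alternatives. The adjusted p ran from 0.163 to 0.9998 for crt2, 0.206 to 0.9998 for PDI1, 0.776 to 0.9998 for bZIP60 and 0.905 to 0.9998 for b-70. The directions of crt2 and PDI1 held in all 13. Most of these refit the same libraries. For genes whose groups did not overlap, leaving out a library could hardly reverse a direction, so these are not independent checks. With total-count scaling, chosen after the data were seen, b-70 reversed to 0.26 and bZIP60 to 0.0885, the list median moved to 0.26 and 0 genes were called in all, with 2096 at an unadjusted p under 0.05. With each library left out in turn the log2 fold change ran from -0.58 to 0.30 for b-70.

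The number of genes called in all, 4 in edgeR, was 679 with DESeq2, 0 with limma-voom (2183 unadjusted), 0 with library sizes without the 10 most abundant genes (1997 unadjusted), 715 with no low-count filter and from 19 to 805 with 1 library left out. Listed endoplasmic reticulum genes called numbered 1 with DESeq2 and 1 with no low-count filter, pdi6 in both (adjusted p = 0.0191 and 0.0479). With the replicate number as a block 642 genes were called, and 2 of the list, pdi6 (adjusted p = 0.0148) and GRMZM2G073628 (0.0457). The libraries share only a number, and nothing in the labels pairs them. Over the tested genes, the deviations of same-numbered libraries from their genotype means correlated at 0.278. With 2 libraries per genotype both numbers give the same value, so it cannot decide whether the libraries are paired. Causes were not tested.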
